A study of Mus musculus with 24 samples.

Results

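The small nucleolar RNAs (snoRNAs) and small Cajal body RNAs (scaRNAs) of mouse bone marrow were examined. Members were all genes of the deposited table whose identifier carries, in GENCODE M21, a symbol beginning with Snord, Snora or Scarna and the gene type snoRNA or scaRNA. This rule uses names only and gave 149 of the 54752 genes in the table: 98 box C/D members (Snord), 42 box H/ACA members (Snora) and 9 Cajal body members (Scarna). Bone marrow cells came from male mice on a C57BL/6 background, either wild type (WT) or deficient in the transcription factor Nrf2 (Nrf2-KO). FL-WT and FL-KO mice stayed 31 days aboard the International Space Station, and GC-WT and GC-KO mice were kept on the ground in the same single housing for the same period. The flight mice were 8 weeks old when moved to the launch site 3 weeks before launch, and the age of the ground mice is not given in the sources used here. Each group held 6 mice with 1 library per mouse. Marrow cells of all 24 mice had been cryopreserved before RNA was taken. Flight mice were dissected in the US 2 days after landing and ground mice in Japan, so spaceflight, return and place of handling cannot be told apart.

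Box C/D snoRNAs pair with a target RNA and direct fibrillarin to methylate the ribose at the paired position, and box H/ACA snoRNAs form hairpins that present a uridine to the pseudouridine synthase dyskerin. Most targets of both classes lie in ribosomal RNA, while scaRNAs stay in Cajal bodies and guide the same modifications on the small nuclear RNAs of the spliceosome. In mammals most of these RNAs are cut out of the introns of host genes, many of which encode ribosomal proteins or translation factors, and a few are transcribed from promoters of their own. In bone marrow, proliferating haematopoietic precursors make ribosomes at a high rate, and inherited defects of dyskerin or of the telomerase RNA, itself an H/ACA RNA, cause marrow failure. Nrf2 is degraded in unstressed cells and, when stabilised, activates genes for antioxidant enzymes.

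The sequences below show what sets the measured members apart from the rest. Snord15a is the longest box C/D member that was listed at 0 in every library, Snord17 is the box C/D member above 0, Snora73a and Snora73b are a near-identical pair, and Scarna13 has the smallest adjusted p of all members. All are transcripts, written as DNA, of GENCODE M21 on GRCm38, given 5′ to 3′. In the box C/D members, capitals mark the first TGATGA (C box) and the last CTGA (D box); in the others, they mark an ACA 3 bases before the 3′ end.
Snord15a (chr7:99482785-99482932, minus strand): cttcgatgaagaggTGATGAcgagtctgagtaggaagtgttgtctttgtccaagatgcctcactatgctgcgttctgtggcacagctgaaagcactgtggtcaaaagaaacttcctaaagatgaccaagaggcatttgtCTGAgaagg
Snord17 (chr2:144265979-144266216, minus strand): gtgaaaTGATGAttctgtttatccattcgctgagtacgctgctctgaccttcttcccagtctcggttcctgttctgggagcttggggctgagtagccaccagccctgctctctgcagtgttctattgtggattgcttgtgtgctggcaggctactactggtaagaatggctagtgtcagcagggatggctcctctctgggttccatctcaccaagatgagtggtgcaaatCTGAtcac
Snora73a (chr4:132352775-132352979, minus strand): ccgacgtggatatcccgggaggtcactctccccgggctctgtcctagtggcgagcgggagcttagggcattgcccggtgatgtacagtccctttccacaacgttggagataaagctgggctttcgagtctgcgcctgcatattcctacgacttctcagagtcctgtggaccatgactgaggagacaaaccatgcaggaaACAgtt
Snora73b (chr4:132352322-132352526, minus strand): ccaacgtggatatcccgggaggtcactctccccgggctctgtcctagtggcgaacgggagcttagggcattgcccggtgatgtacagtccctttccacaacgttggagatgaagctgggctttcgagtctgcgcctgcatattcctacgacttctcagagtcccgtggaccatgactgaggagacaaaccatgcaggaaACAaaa
Scarna13 (chr12:105031075-105031349, minus strand): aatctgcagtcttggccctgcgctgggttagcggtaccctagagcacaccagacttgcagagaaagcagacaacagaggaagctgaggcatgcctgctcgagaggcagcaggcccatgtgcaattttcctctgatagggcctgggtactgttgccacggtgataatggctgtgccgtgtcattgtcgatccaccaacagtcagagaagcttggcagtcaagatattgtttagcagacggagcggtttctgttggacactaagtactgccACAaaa

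Over the classes, 68 of the 98 box C/D members (69.4%) held TGATGA in their first 20 bases and CTGA in their last 20, and 35 of the 42 box H/ACA members (83.3%) held ACA 3 bases from the end. Over all 1558 annotated snoRNA and scaRNA genes of the table the shares were 20.2% and 19.3%. These letters describe the annotated sequences, searched on the transcribed strand only. Snora73a and Snora73b, also known as U17, are both 205 nt long and differ at 7 positions, an identity of 96.6%. Counted from 1 at the 5′ end, with the Snora73a base first, the differences are G3A, G54A, A111G, T164C, G203A, T204A and T205A. The longest run of identical bases between them is 56, so the division of reads between the pair is uncertain.

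Of the 149 members, 139 (93.3%) were listed at a TPM of 0 (transcripts scaled to a fixed sum per library, corrected for length) in all 24 libraries. These were 97 of the 98 box C/D members (99%), 37 of the 42 box H/ACA members (88.1%) and 5 of the 9 Cajal body members (55.6%). The 10 members above 0 were Snord17, the box H/ACA members Snora73a, Snora73b, Snora74a, Snora23 and Snora81, and the Cajal body members Scarna2, Scarna6, Scarna10 and Scarna13. All 10 reached more than 1 TPM in at least 1 library and were tested. Snord17 was therefore the only box C/D member measured in these libraries, and the box C/D members as a whole could not be compared between groups. Since classes follow the symbols, box C/D RNAs that carry other names are not covered by this statement.

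Length separated the members above 0 from those at 0 without overlap. The longest member at 0 was 149 nt and the shortest above 0 was 178 nt, and the median annotated length was 84 nt for box C/D, 132.5 nt for box H/ACA and 140 nt for Cajal body members. This division was not particular to these RNAs. The shortest gene of any kind above 0 in any library was Gm23262, at 168 nt, and none of the 6314 genes shorter than it was above 0. Across the whole table, 3.29% of the genes of 161 to 180 nt, 10.7% of those of 181 to 200 nt and 15.4% of those of 201 to 250 nt were above 0, against 75% of those longer than 1000 nt. Every one of the 10 members of at least 168 nt was above 0. Among the 1409 other genes annotated as snoRNA or scaRNA, 40 were at least 178 nt long and 20 of these were above 0. A listing at 0 for a shorter member is thus a property that it shares with every gene of its length in this table and gives no level in the marrow.

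**Figure D1:**
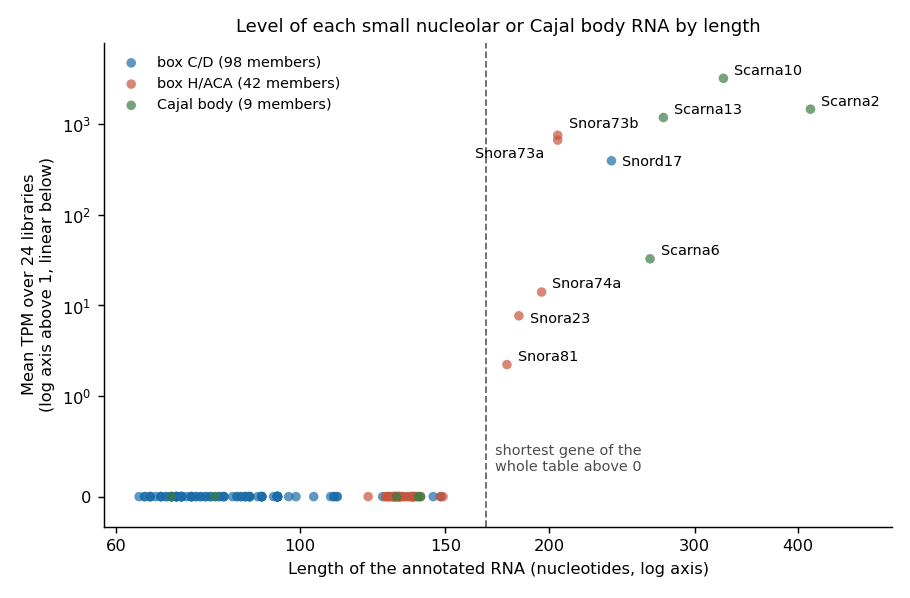
Mean TPM over 24 libraries (vertical axis, log above 1 and linear below) against annotated length in nucleotides (horizontal log axis) for each of the 149 members, coloured by class. The 139 members up to 149 nt sit at 0, the 10 members from 178 nt sit above 0, and the dashed line marks the shortest gene of the whole table above 0.

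TPM is a level per length, but at these lengths it also depends on the fragment-length setting, which is not given in the sources used here, so the order of members of unlike length is that of the table only. In it the Cajal body RNAs had the highest values. Scarna10, which guides modification of the U5 small nuclear RNA, averaged 3235 TPM over the 24 libraries, Scarna2, a guide for U2, averaged 1474 TPM and Scarna13, made of H/ACA domains in tandem, averaged 1193 TPM. Together these 3 RNAs made up 75.8% of the TPM of all members, with a range over libraries of 67.4 to 83.7%. Snora73b (760 TPM) and Snora73a (671 TPM), which take part in the cleavage of precursor ribosomal RNA, came next, before Snord17, a guide for large-subunit ribosomal RNA, at 397 TPM. Scarna6 averaged 32.8 TPM, Snora74a 14.1, Snora23 7.70 and Snora81 2.22 TPM.

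Mice of a group varied least for Scarna13 and most for the members of low level. The SD between mice within groups, pooled over groups on the log2(TPM + 1) scale, was 0.20 for Scarna13, 0.24 for Scarna10 and 0.27 for Scarna2. It was 0.35 for Snord17, 0.42 for Snora73a, 0.40 for Snora73b and 0.61 for Scarna6, and from 1.47 to 1.57 for Snora74a, Snora23 and Snora81. Neighbours in the order of levels did not all differ beyond this spread. Snora73b was above Snora73a in 19 of 24 libraries, with a ratio of 0.937 to 1.477. A single library, GC-WT mouse 6, was the lowest of all 24 for Snora73a, Snora73b, Snord17 and Scarna6, and GC-WT mouse 3 was the lowest for Scarna2 and Scarna13. Summed over members, the level was 7095 ± 1332 TPM (SD, n = 6) for GC-WT, 6993 ± 865 TPM for FL-WT, 8595 ± 1054 TPM for GC-KO and 8466 ± 575 TPM for FL-KO mice. Depth is unknown for TPM, and no counting interval can be given.

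Flight was compared with ground within each genotype (FL-WT vs. GC-WT, the WT flight comparison, and FL-KO vs. GC-KO, the KO flight comparison), and the genotypes were compared within each condition (GC-KO vs. GC-WT, the ground knockout comparison, and FL-KO vs. FL-WT, the flight knockout comparison). Gene by gene, limma on log2(TPM + 1) over all 24 libraries asked whether a member differed between groups. A gene "passed" at a Benjamini-Hochberg adjusted p under 0.1 over all genes tested and was "called" when it also changed at least 2-fold. Single members were also compared by their rank sum in a two-sided exact permutation test, whose smallest possible p with 6 against 6 mice is 0.00216. Replicates are separate mice.

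Facts of the libraries bear on every difference between groups. Small RNAs of 5 symbols (Rn7s1, Rn7s2, Rn7sk, Rpph1 and Rmrp), picked by name and not by rank, took 35.4 to 59.6% of the TPM per library. Protein-coding genes took 36.9 to 60.2%. The median log2 fold change over all 12373 genes tested was -0.24 in the WT flight comparison, -0.29 in the KO flight comparison, -0.22 in the ground knockout comparison and -0.25 in the flight knockout comparison, so fold changes of members are also given relative to these medians. With median-of-ratios scaling, the medians were 0.00, -0.01, 0.03 and 0.04. The targeted gene Nfe2l2, which encodes Nrf2, ranged from 17.05 to 26.06 TPM across the GC-WT and from 11.39 to 27.26 TPM across the FL-WT mice, against 3.60 to 7.18 TPM across the GC-KO and 2.22 to 4.31 TPM across the FL-KO mice. Markers of erythroid cells, neutrophils, B cells, monocytes, megakaryocytes and progenitors were all above a mean of 1 TPM, as were 1 of 3 markers of skeletal muscle and 1 of 2 markers each of bone, fat and brain. In RNA from whole marrow, fewer cells of a type and less RNA per cell cannot be told apart.

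Nrf2 deficiency on the ground went with higher levels of 2 abundant Cajal body RNAs. In the ground knockout comparison, Scarna13, Scarna2 and Snora23 passed, all higher, 3 of the 10 members tested, and Snora23 was the one called. The background is 3.13% of all genes passing higher, 42.9% passing lower and 3.17% called. The other 7 members were also above the control mean on the log scale, with log2 fold changes of 0.07 to 1.18, but did not pass. The direction of some of these turned with the scaling: Snora73b was lower after quantile normalization, and Scarna10 and Scarna6 were lower after scaling to the protein-coding sum or to the sum without the 5 small RNAs.

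Scarna13 showed the clearest separation. Its lowest, median and highest levels were 660.56, 926 and 1246.92 TPM in GC-WT mice and 1345.05, 1398 and 1649.97 TPM in GC-KO mice. Every GC-KO mouse was above every GC-WT mouse, which held for 0.218% of all genes tested in this comparison. The means were 937 ± 192 and 1454 ± 116 TPM (SD, n = 6 each), a ratio of 1.55. The log2 fold change was 0.65 (SE 0.12, 95% confidence interval 0.41 to 0.90), which limma placed at an adjusted p of 0.00044 (exact permutation p = 0.00216). Relative to the median of all genes the difference was 0.88 on the log2 scale.

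Scarna2 rose by a like amount with overlapping groups. The lowest, median and highest levels were 708.53, 1151 and 1777.80 TPM in GC-WT mice and 1503.86, 1713 and 1990.57 TPM in GC-KO mice. One GC-WT mouse thus lay inside the GC-KO range and the others below it. The means of 1177 ± 370 and 1738 ± 196 TPM (SD, n = 6 each) gave a ratio of 1.48, and limma a log2 fold change of 0.61 (SE 0.15, 95% confidence interval 0.31 to 0.92, adjusted p = 0.0023). The exact permutation test gave p = 0.0152. Relative to all genes the log2 difference was 0.83.

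Snora23, a guide of the H/ACA class held in an intron of Ipo7 (chr7:110046364-110046547, plus strand), was listed at 0 in 4 of the 6 GC-WT mice and at 7.56 and 6.93 TPM in the other two. In GC-KO mice it was at 13.00, 20.21, 7.26, 14.10 and 9.43 TPM and at 0 in the sixth. The groups overlapped. limma gave a log2 fold change of 2.08 (SE 0.78) on the log2(TPM + 1) scale with an adjusted p of 0.036, and the exact permutation p was 0.0346. An antisense gene, 1600010M07Rik, covers this locus, and how the counting used the strand is not given in the sources used here. A listing at 0 can be a failed estimate, so no ratio of means is given. With no filter on low values, Snora23 did not pass (adjusted p = 0.127).

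Among the members that did not pass, Snora73a had a log2 fold change of 0.33 (SE 0.22, limma adjusted p = 0.245) and Snord17 of 0.28 (SE 0.19, adjusted p = 0.249). Under median-of-ratios scaling both passed (0.69, adjusted p = 0.058, and 0.64, adjusted p = 0.055). Snora73b was at 0.20 (adjusted p = 0.475) and Scarna10 at 0.07 (adjusted p = 0.735). Scarna10 ranged from 2491.71 to 4472.62 TPM in GC-WT and from 2555.36 to 4135.73 TPM in GC-KO mice, and these ranges covered each other almost wholly.

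In flight mice, the 3 most abundant Cajal body RNAs were higher in the absence of Nrf2. In the flight knockout comparison, Scarna10, Scarna2 and Scarna13 passed, all higher, and none was called. The background is 1.91% of all genes passing higher, 47.2% passing lower and 8.45% called. None of the 5 box H/ACA members and not Snord17 passed, but under median-of-ratios scaling Snora73b did (0.63, limma adjusted p = 0.061). Scarna10 had a lowest, median and highest level of 2250.65, 2672 and 3451.07 TPM in FL-WT mice and of 3124.14, 3615 and 4100.91 TPM in FL-KO mice. Of the 6 FL-KO mice, 5 were above every FL-WT mouse. The means were 2765 ± 468 and 3613 ± 310 TPM (SD, n = 6 each), a ratio of 1.31, with a log2 fold change of 0.40 (SE 0.14, limma adjusted p = 0.022). The exact permutation p was 0.00866.

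Scarna2 lay between 1104.30 and 1437.06 TPM with a median of 1342 TPM in FL-WT mice and between 1438.47 and 1885.09 TPM with a median of 1688 TPM in FL-KO mice. All 6 FL-KO mice were above all 6 FL-WT mice by a narrow margin, which held for 0.307% of the genes tested. The ratio of means was 1.27 and the log2 fold change 0.34 (SE 0.15, limma adjusted p = 0.065, exact permutation p = 0.00216). Scarna13 lay between 895.51 and 1339.46 TPM with a median of 1065 TPM in FL-WT mice and between 1205.73 and 1522.87 TPM with a median of 1265 TPM in FL-KO mice, which overlap. Its ratio of means was 1.20 and its log2 fold change 0.27 (SE 0.12, limma adjusted p = 0.069, exact permutation p = 0.0411). Leaving out FL-WT mouse 3, 7 or 10 or FL-KO mouse 12 took Scarna13 to adjusted p of 0.163, 0.126, 0.103 and 0.160. Leaving out FL-WT mouse 10 or FL-KO mouse 4, 11 or 12 took Scarna2 to 0.140, 0.131, 0.110 and 0.112. With no filter on low values the adjusted p was 0.107 for Scarna13 and 0.141 for Scarna2. Relative to the median of all genes, the log2 differences were 0.65 for Scarna10, 0.59 for Scarna2 and 0.52 for Scarna13.

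**Figure D2:**
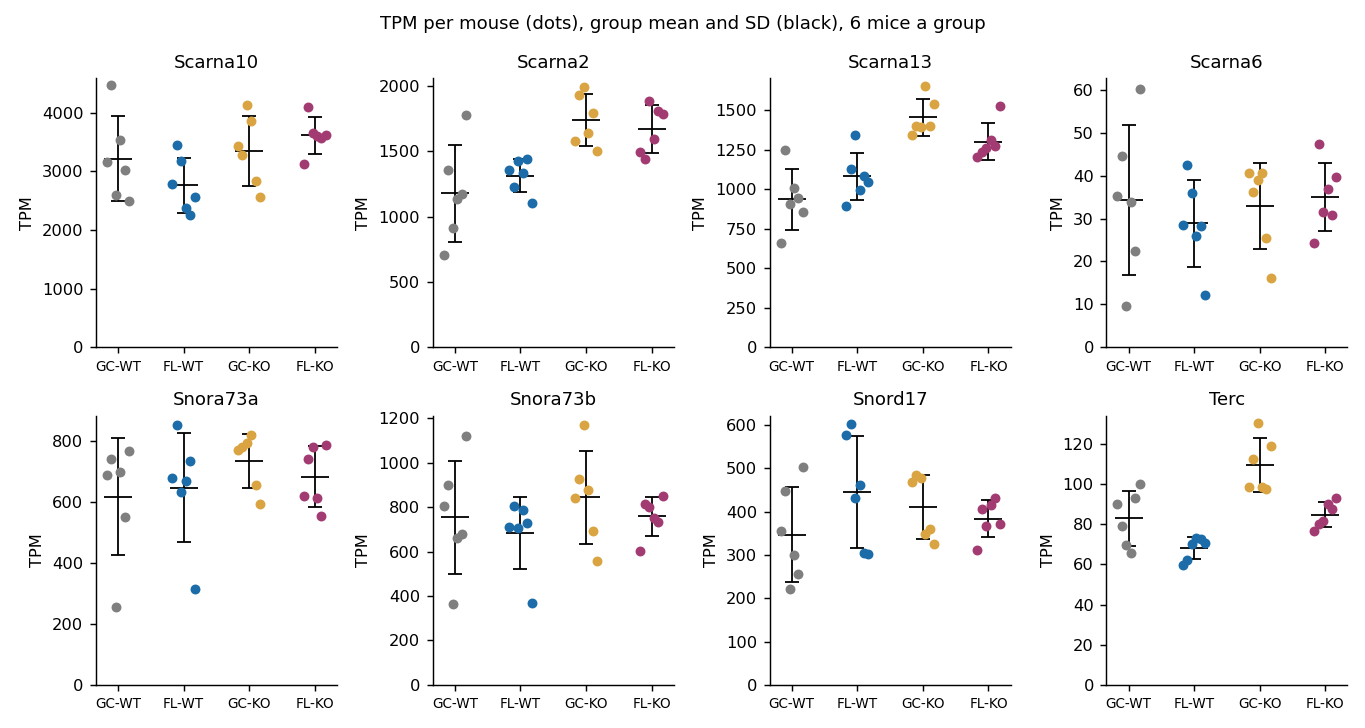
TPM of each mouse (points) with the mean and SD of its group of 6 (bars) for the 7 members above 0 in every library and for Terc, by group on the horizontal axis. The GC-KO mice of Scarna13 (1345.05 to 1649.97 TPM) sit above all GC-WT mice (660.56 to 1246.92 TPM), while the groups of Snora73a, Snora73b, Snord17 and Scarna6 cover each other.

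Both knockout comparisons set these rises against a table in which most genes that passed were lower, and that split depended on which scaling was used. After scaling to the protein-coding sum it remained, with 2.4% of all genes passing higher and 63.4% lower in the ground knockout comparison. In the flight knockout comparison these shares were 5.12% and 48.4%. With median-of-ratios scaling 29.8% of all genes passed higher and 27.9% lower in the ground knockout comparison, and 35.2% higher and 31.2% lower in the flight knockout comparison. Scarna13, Scarna2 and Snora23 still passed in the ground knockout comparison under each of the 5 scalings tried, and Scarna10, Scarna2 and Scarna13 in the flight knockout comparison. Across 33 alternatives the log2 fold change in the ground knockout comparison spanned 0.49 to 1.01 for Scarna13 and 0.45 to 0.97 for Scarna2, and both passed in all 33. Scarna10 in the flight knockout comparison spanned 0.34 to 0.84 and also passed in all 33. Some of the 33, such as leaving out a mouse of another group, cannot change the fold change.

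Ranges of the summed blood cell markers overlapped between the genotypes, on the ground and in flight, for every lineage except the B lineage. These sums were not tested. The summed level of the 4 B lineage markers ranged from 90.1 to 124 TPM over GC-WT, 46.7 to 80.3 TPM over GC-KO, 43.1 to 115 TPM over FL-WT and 26.0 to 42.1 TPM over FL-KO mice. The 5 erythroid markers summed to 50706 to 120928 TPM in GC-WT and 99188 to 148221 TPM in GC-KO mice, and to 88019 to 121185 and 93596 to 136394 TPM in FL-WT and FL-KO mice. The part of cell composition in the values of Scarna13, Scarna2 and Scarna10 was not tested.

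In the fit without a block for replicate number, spaceflight moved no member past the threshold in either genotype. In the WT flight comparison 0 of 10 members passed limma's adjusted p, and 0 had an unadjusted p under 0.05. The background is 0.994% of all genes passing higher, 39.0% passing lower and 1.0% called. Snord17 averaged 347 ± 110 TPM on the ground and 446 ± 129 TPM after flight (SD, n = 6 each), with a log2 fold change of 0.37 (SE 0.19, limma adjusted p = 0.133). Its lowest, median and highest levels were 221.23, 328 and 502.56 TPM in the former and 301.45, 446 and 602.59 TPM in the latter, an extensive overlap. Scarna13 (0.22, adjusted p = 0.160), Scarna2 (0.21, adjusted p = 0.273) and Scarna10 (-0.20, adjusted p = 0.257) were nearer to 0. Snora23 was at 5.58, 22.71, 7.88 and 27.99 TPM in 4 FL-WT mice and at 0 in the other two, with a log2 difference of 1.53 (SE 0.78, limma's adjusted p = 0.132). Under median-of-ratios scaling Scarna13, Scarna2 and Snord17 passed higher here, with log2 fold changes of 0.57, 0.56 and 0.72 and adjusted p of 0.013, 0.026 and 0.055, beside 17.4% of all genes passing higher and 15.9% lower. With the replicate number as a block, Scarna13, Snora23 and Snord17 passed higher (adjusted p = 0.083, 0.0912 and 0.0912).

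In the KO flight comparison again 0 of 10 members passed and 0 had an unadjusted p under 0.05, beside a background of 0.299% passing higher, 53.1% passing lower and 2.13% called. Scarna13 averaged 1454 ± 116 TPM on the ground and 1300 ± 115 TPM after flight (SD, n = 6 each). The highest FL-KO mouse, at 1522.87 TPM, lay inside the GC-KO range and the other 5 below it, and the exact permutation test gave p = 0.026, while limma gave a log2 fold change of -0.16 with an adjusted p of 0.267. Scarna10 was at 0.12 (adjusted p = 0.463) and passed under median-of-ratios scaling (0.56, adjusted p = 0.067) and quantile normalization (0.55, adjusted p = 0.035). In this comparison 3 of 10 members were higher in TPM, against 9 under both of these scalings, and the all-gene split moved to 18.1% higher and 21.6% lower under the former.

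Whether flight acted differently in the genotypes was tested by the interaction, FL-KO minus GC-KO less FL-WT minus GC-WT. No member passed, and limma called 0.0162% of all genes. Scarna13 had the smallest p of the members, with a difference of -0.38 on the log2 scale (SE 0.17, unadjusted p = 0.033, adjusted p = 1). It was the one member with an unadjusted p under 0.05. Snord17 was at -0.45 (unadjusted p = 0.0996) and Scarna10 at 0.33 (unadjusted p = 0.108). A different effect of Nrf2 deficiency on the ground and in flight was therefore not shown for any member.

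By class, medians are described beside those of all genes. The 4 Cajal body members tested had a median log2 fold change above the all-gene median by 0.28 in the WT flight comparison, 0.32 in the KO flight comparison, 0.56 in the ground knockout comparison and 0.59 in the flight knockout comparison. For the 5 box H/ACA members tested the same differences were 0.34, 0.16, 0.62 and 0.44. Single mice moved these: leaving out one mouse gave box H/ACA ranges of 0.0767 to 0.64, -0.0535 to 0.23, 0.29 to 1.35 and 0.17 to 0.54, with the extremes reached without GC-WT mouse 6 or 5, GC-KO mouse 12 or 4, GC-WT mouse 6 or GC-KO mouse 12, and FL-WT mouse 10 or 5. The first value was also 0.18 without FL-WT mouse 5, 0.54 without FL-WT mouse 10 and 0.55 without GC-WT mouse 10, the second 0.0987 without GC-KO mouse 11, and the third 0.95 without GC-WT mouse 5. Snord17 alone stood for box C/D, at 0.61, 0.20, 0.50 and 0.08, and the last of these ran from -0.0523 to 0.25 without FL-WT mouse 8 or 5, and was also below 0 without FL-WT mouse 10. These medians rest on the members long enough to be listed, and no test was made of them. The difference between the classes in the ground knockout comparison, 0.56 against 0.62, was far within the spread of their members, which ran from 0.07 to 0.65 for Cajal body and from 0.20 to 2.08 for box H/ACA members.

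**Figure D3:**
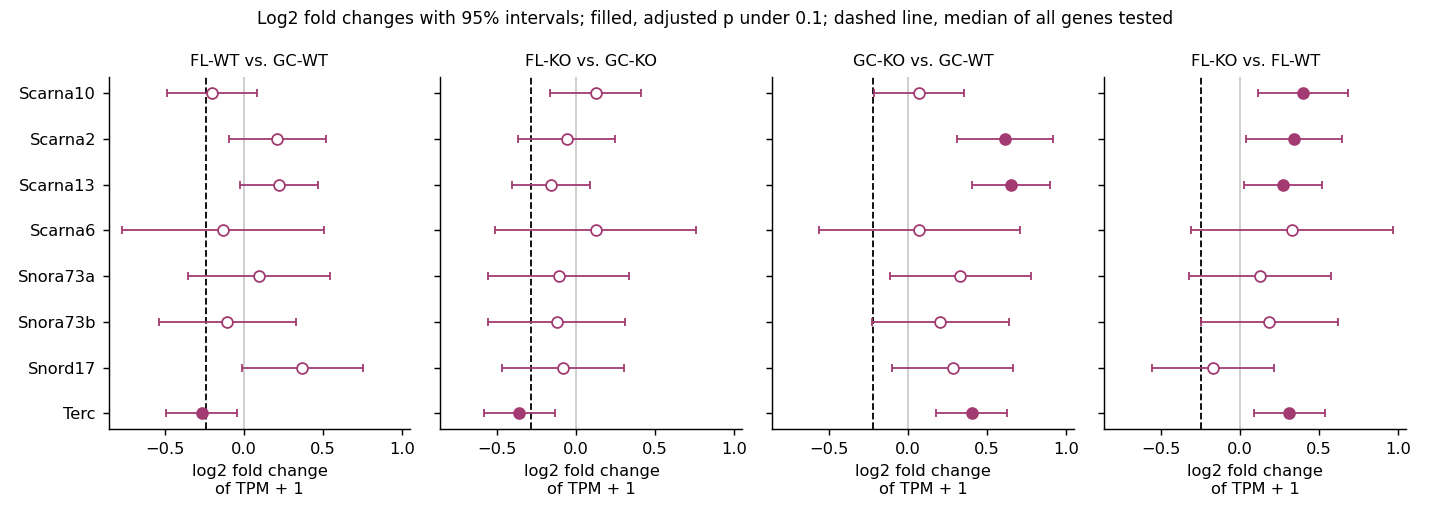
Log2 fold change of TPM + 1 with its 95% confidence interval (horizontal axis) for the 7 members above 0 in every library and for Terc, in each of the 4 comparisons, with filled points for an adjusted p under 0.1. The dashed line is the median of all genes tested, from -0.22 to -0.29. Of the members, Scarna13 and Scarna2 are filled in the ground knockout comparison and Scarna10, Scarna2 and Scarna13 in the flight knockout comparison, and none in the flight comparisons, where Terc alone is filled.

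The low members can be given only as listings. Snora74a was above 0 in 21 libraries, with a highest value of 26.67 TPM for GC-WT, 21.93 TPM for FL-WT, 22.69 TPM for GC-KO and 26.28 TPM for FL-KO mice, and at 0 in 1 mouse of each of the first 3 groups. Snora81, which lies in the translation factor gene Eif4a2 (chr16:23110756-23110933, plus strand) and overlaps its exons, was above 0 in 4 libraries: 23.71 TPM in 1 FL-WT mouse, 10.14 and 10.97 TPM in 2 GC-KO mice and 8.56 TPM in 1 FL-KO mouse. In GC-WT mice it was listed at 0 throughout. Scarna6 was above 0 in all libraries but varied 6.30-fold between the lowest (9.54 TPM) and the highest (60.06 TPM), both of them GC-WT mice, and no comparison of it passed.

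Host genes give a separate readout of the same loci. Of the 149 members 140 lie inside another gene on the same strand. These hosts are 96 genes, 72 of them protein-coding and 23 of those encoding ribosomal proteins, and 37 members lie in Gas5 or a noncoding host of the Snhg series. Of the 88 hosts tested, 0 passed higher and 38 lower in the WT flight comparison, 0 and 38 in the KO flight comparison, 14 and 25 in the ground knockout comparison, and 9 and 22 in the flight knockout comparison. The shares of all genes passing lower were 39.0%, 53.1%, 42.9% and 47.2%, and those passing higher 0.994%, 0.299%, 3.13% and 1.91%. With median-of-ratios scaling the host counts became 29 and 10, 28 and 11, 51 and 13, and 56 and 16, beside 17.4% and 15.9%, 18.1% and 21.6%, 29.8% and 27.9%, and 35.2% and 31.2% of all genes, so the main direction of the hosts depended on the scaling. Of the 12 Snhg genes and Gas5 tested, 0 passed higher and 5, 5, 1 and 1 passed lower in the same order, and with median-of-ratios scaling 1, 2, 6 and 8 passed higher and 2, 0, 1 and 0 lower.

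The values of Scarna10 and its host lay apart, a difference that was not tested. Scarna10 (chr6:125186359-125186683, minus strand) lies in Ncapd2, which encodes a condensin subunit, and overlaps an exon of it. Ncapd2 had log2 fold changes of -0.91 (limma adjusted p = 0.0025) in the WT flight comparison, -1.24 (8.46e-05) in the KO flight comparison, -0.77 (0.0042) in the ground knockout comparison and -1.10 (8.38e-05) in the flight knockout comparison. It passed lower in all 4 under each of the 5 scalings. Scarna10 was at -0.20, 0.12, 0.07 and 0.40 in the same order, and the last of these passed. Reads in the shared exon could be given to either gene.

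Scarna13 lies in an intron of the noncoding gene Snhg10, which was at 0.19 to 1.91 TPM per mouse. In the ground knockout comparison Snhg10 had a log2 fold change of -0.04 (limma adjusted p = 0.881), where that of Scarna13 was 0.65, and in the WT flight comparison -0.56 (adjusted p = 0.0094), where that of Scarna13 was 0.22. At so low a level the log2(TPM + 1) scale understates a change of the host. Scarna2 (chr3:108554338-108554751, minus strand) lies in no other gene of its strand. Scarna6 (chr1:87784556-87784820, plus strand) lies in an intron of the autophagy gene Atg16l1, which passed lower in the WT flight comparison (-0.31, adjusted p = 0.063) and the KO flight comparison (-0.43, adjusted p = 0.010).

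Snora73a and Snora73b lie in introns of Rcc1, the exchange factor of the nuclear transport GTPase Ran, and within the noncoding gene Snhg3, of which Snora73a overlaps an exon, with Gm17300 on the other strand. Rcc1 passed lower in all 4 comparisons in TPM, with log2 fold changes of -0.39, -0.68, -0.46 and -0.74. Under median-of-ratios scaling it passed in the KO flight comparison (-0.32) and the flight knockout comparison (-0.37) but not in the WT flight comparison (-0.08) or the ground knockout comparison (-0.14). The summed level of the pair was 1371 ± 433 TPM for GC-WT, 1331 ± 336 TPM for FL-WT, 1580 ± 289 TPM for GC-KO and 1442 ± 172 TPM for FL-KO mice (SD, n = 6 in each group), and these means differed by less than the spread of GC-WT mice. Snord17 lies in an intron of Snx5, a sorting nexin, which passed in no comparison.

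**Figure D4:**
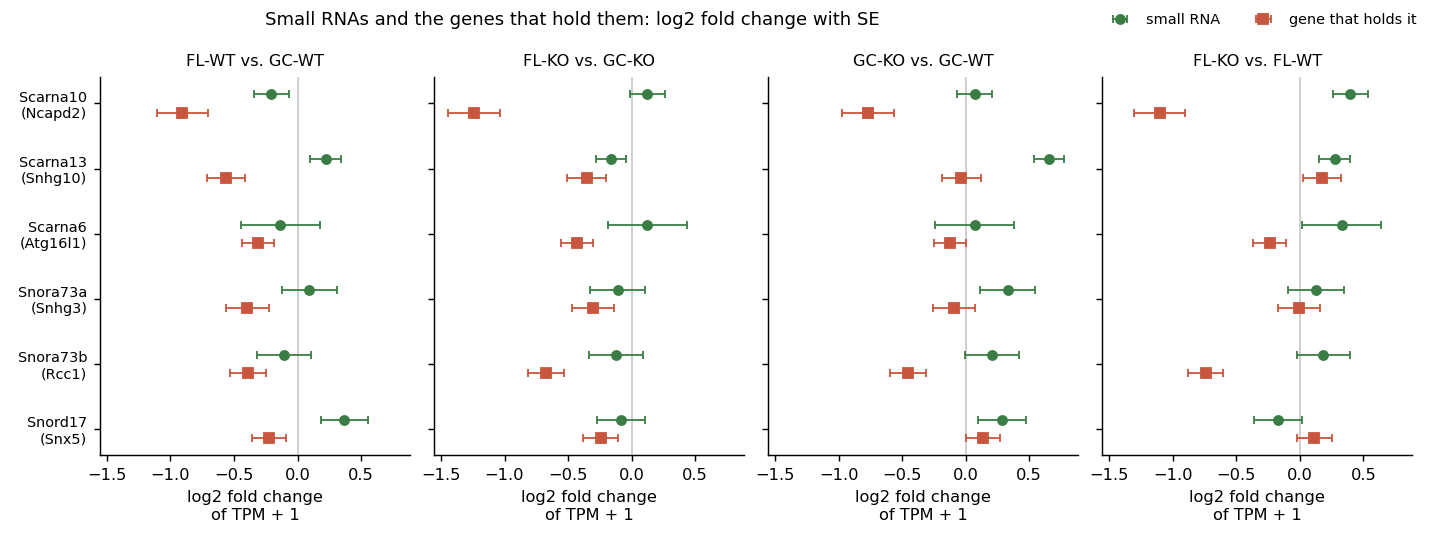
Log2 fold change of TPM + 1 with its SE (horizontal axis) for 6 members (circles) and the gene that holds each (squares, named in brackets), in the 4 comparisons. Ncapd2 sits between -0.77 and -1.24 in every panel while Scarna10 sits between -0.20 and 0.40.

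For the proteins that act with these RNAs, the same libraries give mRNA levels only, and no protein was measured. Of 22 such mRNAs tested (Tert was not tested), 0 passed higher. In the WT flight comparison 6 passed lower and in the KO flight comparison 8. In the ground knockout comparison 10 passed lower and in the flight knockout comparison 12. Of all genes, 39.0%, 53.1%, 42.9% and 47.2% passed lower in the same order, so these counts lie near or below the background. With median-of-ratios scaling, 5, 5, 5 and 10 of these mRNAs passed higher and 1, 2, 8 and 7 lower, beside 17.4%, 18.1%, 29.8% and 35.2% of all genes passing higher and 15.9%, 21.6%, 27.9% and 31.2% lower. Under all 5 scalings, 5 of these mRNAs passed lower in both knockout comparisons: Fbl, Naf1, Nolc1, Ruvbl2 and Smn1. The share of all genes that did the same was not computed, so this count is not read as particular to them. The mRNA of fibrillarin (Fbl), the methyltransferase of box C/D particles, averaged 20.8 ± 2.71 TPM for GC-WT, 19.8 ± 5.62 TPM for FL-WT, 12.6 ± 3.73 TPM for GC-KO and 9.33 ± 1.37 TPM for FL-KO mice (SD, n = 6 in each group). Its log2 fold change was -0.72 (limma adjusted p = 0.0014) in the ground knockout comparison and -0.98 (adjusted p = 2.62e-05) in the flight knockout comparison. Nolc1, a chaperone of the nucleolus and Cajal body, was at -0.87 and -0.90, the assembly helicase Ruvbl2 at -0.84 and -1.06, the H/ACA assembly factor Naf1 at -0.45 and -0.65, and Smn1, which loads proteins on small nuclear RNAs, at -0.58 and -0.61 in these comparisons.

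Wrap53, which brings RNAs to Cajal bodies, had log2 fold changes of -0.47 in the WT flight comparison, -0.62 in the KO flight comparison, -0.37 in the ground knockout comparison and -0.52 in the flight knockout comparison, and passed in all 4 in TPM. The fall after flight also held in both genotypes under each scaling. The fall in the ground knockout comparison did not pass under median-of-ratios scaling or quantile normalization, and that in the flight knockout comparison did not pass under quantile normalization (-0.13, adjusted p = 0.109).

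Terc, the telomerase RNA with an H/ACA domain, averaged 83.1 ± 13.6 TPM for GC-WT, 68.1 ± 5.63 TPM for FL-WT, 110 ± 13.5 TPM for GC-KO and 84.8 ± 6.33 TPM for FL-KO mice (SD, n = 6 in each group). It lay between 65.93 and 100.24 TPM in GC-WT and between 97.58 and 130.62 TPM in GC-KO mice, with a slight overlap, and between 59.80 and 73.02 TPM in FL-WT and 76.75 and 93.00 TPM in FL-KO mice, with none. Terc rose in Nrf2-KO mice on the ground (log2 fold change 0.40, limma adjusted p = 0.0050) and in flight (0.31, adjusted p = 0.021), and both rises passed under all 5 scalings. In TPM it was lower after flight, at -0.27 (adjusted p = 0.062) in WT and -0.36 (adjusted p = 0.012) in Nrf2-KO mice. All 6 FL-KO mice were below all 6 GC-KO mice, as in 18.4% of the genes tested, and under median-of-ratios scaling these values were 0.08 and 0.07 and did not pass. Of 1383 small nuclear RNA genes, the class that scaRNAs modify, 1370 were at 0 in every library. The 13 tested were 172 to 191 nt long, so shorter genes of this class have no level here. These 13 passed lower in 3 and 5 cases in the WT flight comparison and the KO flight comparison and higher in 5 cases in the ground knockout comparison. The background is 39.0% and 53.1% of all genes passing lower in the former and 3.13% passing higher in the latter. In the flight knockout comparison 0 of the 13 passed limma's adjusted p. The rises in the ground knockout comparison numbered 5 or 6 under the other scalings, and the falls 3 in the WT flight comparison and 1 to 4 in the KO flight comparison. Under median-of-ratios scaling 3 of the 13 also passed higher in the WT flight comparison, beside 17.4% of all genes.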

How the data were processed

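Gene expression in cryopreserved bone marrow cells of 24 mice was measured by RNA sequencing. According to the study's methods and the labels, the authors extracted RNA with ISOGEN-LS, made libraries with the MGIEasy RNA Directional kit, sequenced them on a DNBSEQ-G400, and used STAR 2.6.1 and RSEM 1.3.1 with the mouse genome mm10. The deposited values are TPM per gene made by the authors, with one column per mouse. The annotation release, the fragment-length setting of RSEM and its use of strand are not given in the sources used here. Since TPM keeps no depth, library depths are unknown, and the 6 mice per group set the precision. Columns of fold changes or p-values were not used.

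Gene symbols, gene types, lengths and sequences came from GENCODE M21 by identifier with the version removed, and 54723 of 54752 genes matched. Box C/D, box H/ACA and Cajal body classes follow the symbols. Host genes contain a member on the same strand. Genes above 1 TPM in at least 1 library were tested (12373) on log2(TPM + 1) by limma 3.58.1 in R 4.3.3, with group means as the model over all 24 libraries and no other covariate. The adjusted p threshold of 0.1, the 2-fold minimum and the filter on low values are those of the study's methods. Such a fold change understates the change of low genes. Single members were also compared by an exact permutation test (Python 3.11.15, scipy 1.17.1). Figures were drawn with matplotlib 3.10.9. The fit and the exact test were checked on simulated data.

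The members, the lists of partner proteins, markers and host genes, and the tests were chosen with earlier results of these data known. Members are named where they were called or passed, where they had the highest mean TPM of their class, or where, at a mean of at least 5 TPM, they had one of the 3 largest changes in either direction of a comparison. Alternatives were a pseudocount of 0.1, no filter, a filter of 1 TPM in 6 or more libraries, quantile normalization, median-of-ratios scaling, TPM rescaled without the 5 small RNAs, a variance trend, only the groups compared, no minimum fold, a block for the replicate number, and leaving out each mouse. Scaling to the sum of protein-coding genes was added after seeing the data.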

Additional observations from a re-analysis of the deposited data

Results flagged for a closer look

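In 5 of 39 groups of 6 mice, one mouse lay far from the others for a member, by the gap to its nearest neighbour as a share of the range of the group. For 6 normal values chance gives about 1 in 20 such groups, but this rate does not hold for members listed at 0 in some mice. Where 1 mouse alone is above 0, as for Snora81, the gap fills the range by construction. Scarna13 in FL-KO mouse 12 was the highest of its group at 1522.87 TPM, and the other FL-KO mice lay between 1205.73 and 1310.91 TPM. Snora73b in FL-WT mouse 10 was the lowest of its group at 367.22 TPM, and the highest FL-WT mouse was at 804.56 TPM. Snora74a in GC-KO mouse 12 was listed at 0 TPM, while the other GC-KO mice lay between 14.87 and 22.69 TPM. Snora81 was above 0 in a single mouse of each flight group, at 23.71 TPM in FL-WT mouse 7 and at 8.56 TPM in FL-KO mouse 12. Their causes were not tested.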

How the results depend on the processing

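Of 1665 single-member values over the alternatives, 1556 kept both direction and side of the threshold, 11 lost the adjusted p threshold, 23 gained it and 75 turned their sign. None of the values that turned had passed. The direction of part of the 1665 values was fixed in advance. Leaving out a mouse that is in neither group compared cannot change the fold change, only its adjusted p. The same holds for the variance trend, no filter, the filter of 1 TPM in 6 or more libraries, only the groups compared and the replicate block. The count of called members in the ground knockout comparison was 1, and became 0 with no filter, 2 with median-of-ratios scaling and 3 with no minimum fold. It became 3 with no minimum fold in the flight knockout comparison, and it ran from 0 to 1 in the WT flight comparison when single mice were left out, where Snora23 was called without GC-WT mouse 6 or 10, FL-WT mouse 5 or 10, or GC-KO mouse 12. With no filter, which tests more genes, the adjusted p was 0.127 for Snora23 in the ground knockout comparison and 0.141 for Scarna2 and 0.107 for Scarna13 in the flight knockout comparison. The medians of box C/D and box H/ACA members relative to all genes moved by less than the spread between mice in every alternative. For box H/ACA members this spread is a loose measure. Their ground knockout value of 0.62 ran from 0.29 to 1.35 when single mice were left out and stayed within it. The median of Cajal body members was not recomputed.

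Replicate numbers were not taken as pairs, since the labels give no shared origin and not every pair correlated above 0.1. The 12 same-numbered pairs correlated at -0.0265 to 0.273, 7 of them above 0.1. Among the mice of the same genotype in the other condition, 8 of 24 mice correlated best with their own number. The number expected without pairing was not computed, so these values do not decide whether the numbers mark pairs. The replicate block gave 1 called member in the WT flight comparison (Snora23) against 0 without it, and 0 in the KO flight comparison in both. Under the block Snord17 and Scarna13 also passed the adjusted p (0.0912 and 0.083) in the WT flight comparison, below the fold minimum. Knockout comparisons share no replicate number and could not be blocked.

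The log2 fold changes that turned were these, and the cause was not tested. With a pseudocount of 0.1, Snora23 in the KO flight comparison was 0.28. With median-of-ratios scaling, the WT flight comparison gave 0.25 for Snora73b, 0.20 for Scarna6 and 0.15 for Scarna10. The KO flight comparison then gave 0.33 for Snora73a, 0.18 for Snora23, 0.31 for Snora73b, 0.35 for Snord17, 0.38 for Scarna2 and 0.28 for Scarna13, the flight knockout comparison 0.27 for Snord17, and the interaction 0.068 for Snora73b. With quantile normalization, Scarna6 in the WT flight comparison was 0.088 and Snora73b in the ground knockout comparison -0.01. The KO flight comparison then gave 0.10 for Snora73a, 0.20 for Snora23, 0.14 for Snora73b, 0.050 for Snord17, 0.25 for Scarna2 and 0.16 for Scarna13, and the interaction 0.050 for Snora73a, 0.29 for Snora73b and 0.044 for Scarna2. Without the 5 small RNAs, the KO flight comparison gave 0.072 for Snora73a, 0.0988 for Snora23, 0.058 for Snora73b, 0.097 for Snord17, 0.12 for Scarna2 and 0.020 for Scarna13, the ground knockout comparison -0.041 for Scarna6 and -0.049 for Scarna10, and the interaction 0.0007 for Snora73a and 0.19 for Snora73b. Scaled to the protein-coding sum, the KO flight comparison gave 0.062 for Snora73a, 0.047 for Snora73b, 0.087 for Snord17, 0.11 for Scarna2 and 0.0098 for Scarna13, the ground knockout comparison -0.058 for Scarna6 and -0.063 for Scarna10, and the interaction 0.17 for Snora73b.

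Leaving out single mice took Scarna6 from -0.062 to 0.22 in the KO flight comparison, from -0.44 to 0.082 in the WT flight comparison and from -0.24 to 0.27 in the ground knockout comparison. Snora23 ran from -0.14 to 0.84 in the flight knockout comparison and from -0.79 to 0.093 in the KO flight comparison. Snora73a ran from -0.068 to 0.22 in the flight knockout comparison, from -0.14 to 0.29 in the WT flight comparison and from -0.40 to 0.034 in the interaction. Snora73b ran from -0.30 to 0.064 in the WT flight comparison and from -0.19 to 0.17 in the interaction. Snora74a ran from -0.32 to 0.59 in the KO flight comparison, from -0.57 to 0.72 in the WT flight comparison, from -0.24 to 1.12 in the ground knockout comparison and from -0.39 to 0.96 in the interaction. Snora81 ran from -0.77 to 0.54 in the flight knockout comparison. Depth is unknown for TPM, and how many reads stand behind the low members cannot be given.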

Other observations

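Outside the named members, 21 of the 1409 other genes annotated as snoRNA or scaRNA were above 0 and tested. Of these, 3 passed higher and 0 lower in the ground knockout comparison, 1 higher and 2 lower in the flight knockout comparison, 1 higher and 0 lower in the WT flight comparison, and 1 higher and 2 lower in the KO flight comparison. In the same order, 3.13%, 1.91%, 0.994% and 0.299% of all genes passed higher and 42.9%, 47.2%, 39.0% and 53.1% lower. Several entries of Rnu3b1, Rnu3b2, Rnu3b3 and Rnu3b4 shared identical values, so the 21 are not all separate readouts. The most abundant was Gm22009, annotated as a scaRNA gene, at a mean of 547 TPM; this gene was chosen for its level after the values were seen. Gm22009 had a log2 fold change of 0.73 (limma adjusted p = 0.0058) in the ground knockout comparison and of 0.9985 (adjusted p = 0.00022) in the flight knockout comparison, and both rises passed under all 5 scalings. In the KO flight comparison it was at 0.44 (adjusted p = 0.078), and in the WT flight comparison at 0.17 (adjusted p = 0.53). Gm22009 was called in no comparison. The 2 genes called in the flight knockout comparison were lower: Gm23946 at -2.24 (limma adjusted p = 0.00043) and Gm23262 at -6.60 (adjusted p = 0.0014). Neither passed in the ground knockout comparison. Gm23946 was called higher in the WT flight comparison (1.40, adjusted p = 0.032) and Gm23262 lower in the KO flight comparison (-3.77, adjusted p = 0.059).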
